A study of Mus musculus with 8 samples.

Results

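The 28 genes described here encode the machinery of cholesterol synthesis in mouse liver and other targets of SREBP2, the transcription factor that controls it. They were chosen by gene symbol from a fixed list of 28, and all 28 were found among the 35638 genes of the table. The KO livers carried Arid1a Fl/Fl, with both Arid1a alleles flanked by loxP sites, together with Alb-cre, a transgene whose albumin promoter expresses Cre recombinase in hepatocytes (n = 4). The livers called WT carried the same floxed Arid1a alleles without Alb-cre (n = 4), so neither group has unmodified Arid1a alleles. All samples were frozen liver at postnatal day 90, from mice whose strain was a mix of C57/B6 and 129. Values are FPKM, read counts scaled by the length of the gene and the depth of the library. The comparison asks whether expression of the cholesterol pathway differs when hepatocytes lose Arid1a, which encodes part of a SWI/SNF chromatin remodeller. Liver cells in which the albumin promoter was never active should keep Arid1a in the KO animals, which was not measured by cell type here. Feeding state, hour of collection and sex were not given in the sources used here. The labels do not say whether each replicate is a separate animal. The p-values therefore rest on the spread among these samples, part of which may be technical.

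As background, SREBP2 is made as a membrane protein of the endoplasmic reticulum, where SCAP escorts it and the INSIG proteins hold the pair back while sterols are abundant. When sterols run low the pair moves to the Golgi, proteases release the active part, and it switches on genes of the whole route from acetyl-CoA to cholesterol, among them Insig1, which closes a feedback loop. The liver is a main site of this synthesis, and the route also supplies prenyl groups for proteins, dolichol and ubiquinone. SREBP1c, a related factor, drives fatty acid synthesis after feeding.

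Depth, estimated from the steps between low values, was about 13700000 to 15200000 reads in KO libraries and 12400000 to 13600000 in WT libraries. Arid1a itself ranged over 2.59 to 3.46 FPKM in the KO libraries and over 3.998 to 8.38 FPKM in the WT libraries (log2 change -0.67, limma adjusted p = 0.316), without overlap. The 8 hepatocyte markers checked, such as Alb and Apoa1, were abundant throughout, with summed levels of 32706 to 48365 FPKM in KO and 29525 to 41448 FPKM in WT. Summed markers of macrophages, endothelium and stellate cells were higher in every KO library than in any WT library, though no single marker had a limma adjusted p under 0.05. The summed level of 11 macrophage markers was 19.3 to 134 FPKM in KO and 6.21 to 13.99 FPKM in WT, of 9 endothelial markers 8.56 to 21.2 and 2.53 to 6.12 FPKM, and of 9 stellate and fibroblast markers 9.498 to 23.4 and 1.99 to 6.32 FPKM. KO 2 was the lowest KO library for the macrophage and endothelial lists. The 6 cholangiocyte markers summed to 0.527 to 6.84 FPKM in KO and 0.269 to 0.792 FPKM in WT, with overlap. Most of each KO sum was Spp1, at 0.512 to 6.72 FPKM in KO and 0 to 0.658 FPKM in WT. Sox9 went the other way without overlap, at 0.0157 to 0.123 FPKM in KO and 0.134 to 0.462 FPKM in WT. Krt19 was at 0 in all but KO 4. The 6 lymphocyte markers found, of 7 listed, summed to at most 0.279 FPKM and the 5 adipocyte markers to at most 2.08 FPKM in any library. Plin1 and Lep, which define adipocytes, were at 0 throughout. In bulk tissue, fewer cells of a type and less RNA per cell cannot be told apart, and the part of these cells in the results below was not tested.

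None of the 28 genes passed the test between KO and WT livers. All 28 passed the filter on low values (a mean of at least 1 FPKM over the 8 libraries), and 0 of them had a limma adjusted p under 0.05, where 0.763% of the 11266 genes tested did (0.408% higher and 0.355% lower in KO). At an unadjusted p under 0.05 there were 2 members (7.14%), against 9.81% of all genes tested. The ranges of KO and WT were apart for 2 members (7.14%), against 6.23% of all genes (3.05% higher and 3.18% lower in KO), so both shares lie near the background. Of the 28 changes 11 were above 0 (39.3%) and 17 below, where 45.5% of all genes were above 0 and 54.5% below. The median change of the members was -0.10 on the log2(FPKM + 1) scale, and that of all genes -0.03. The 95% interval of the change stayed within 1 log2 unit on both sides for 15 of the 28, and was wider for the others, so these libraries leave room for larger changes of those. The interval was widest for Insig2, Hmgcs1 and Mvd. Scaling the libraries to equal sums put the median of all genes at -0.12 and that of the members at -0.21, and turned the small positive changes of Acat2, Pmvk, Fdft1 and Ebp to below 0.

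**Figure D1:**
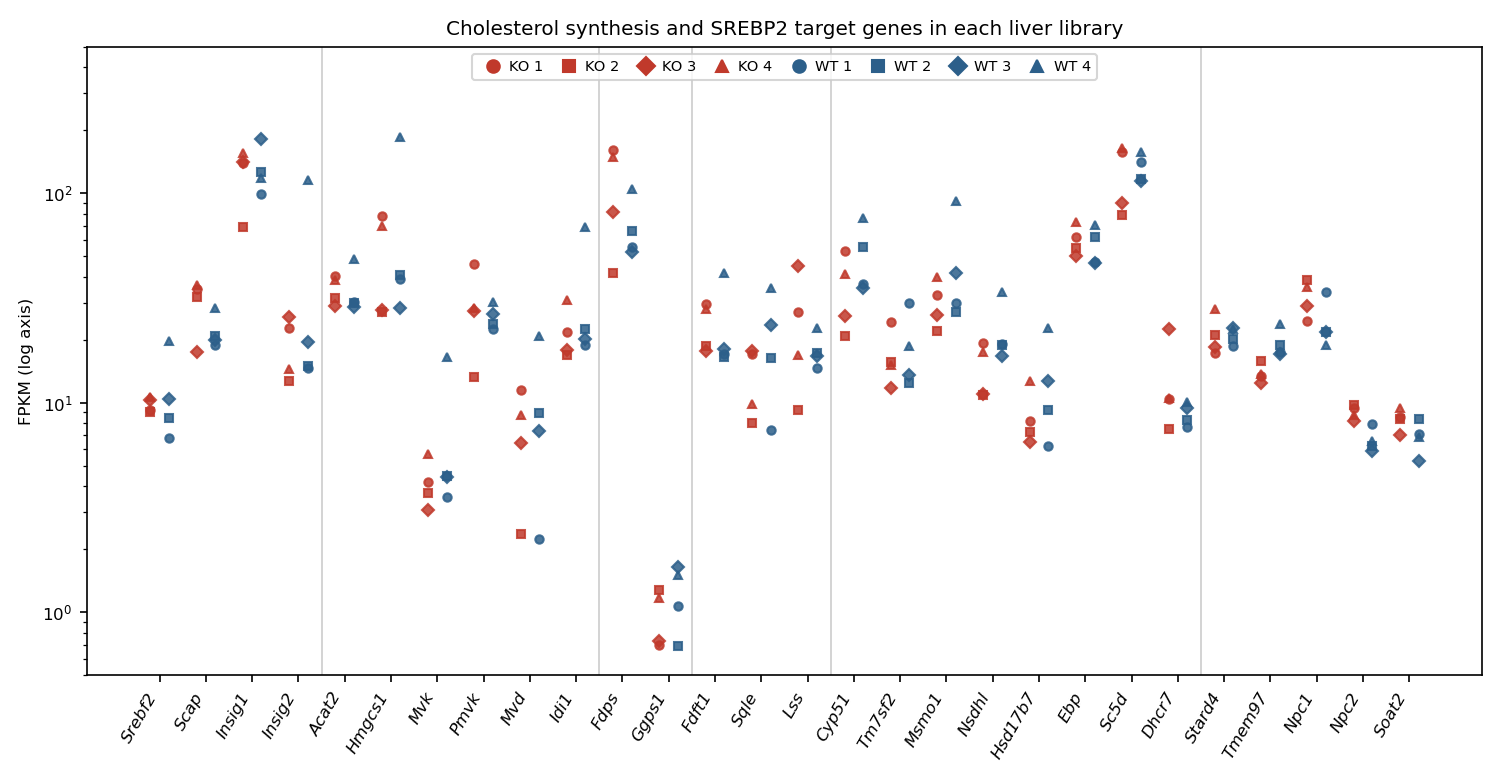
FPKM (log axis) of each of the 28 genes in the 4 KO libraries (red, left) and the 4 WT libraries (blue, right), with marker shape giving the replicate number and grey lines parting the pathway steps. KO and WT points overlap for all genes except Tmem97 and Npc2, and the WT 4 triangle stands above the other WT points for many genes, such as Insig2 (116 FPKM) and Hmgcs1 (185 FPKM).

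Within each genotype the members were often highest or lowest in the same library. WT 4 was the highest of the 4 WT libraries for 21 of the 28 members (75.0%), against 44.7% of all genes tested. Of all 8 libraries it was the highest for 14 members (50%), against 27.5% of all genes. Its level was at least 2 times the mean of WT 1 to WT 3 for 10 members (35.7%), against 9.12% of all genes with a value. WT 1 was the lowest WT library for 13 members (46.4%), against 27.2% of all genes. Among KO libraries, KO 2 was the lowest for 15 members (53.6%), against 24.9% of all genes. KO 4 was the highest KO library for 11 members (39.3%, against 45.5% of all genes) and KO 1 for 9 (32.1%, against 15.7%), and KO 4 was the lowest for 0, against 12.5% of all genes. The mean log2(FPKM + 1) of the 28 genes was 4.62, 4.03, 4.29 and 4.597 in KO 1 to KO 4, against 4.18, 4.31, 4.33 and 5.08 in WT 1 to WT 4. The lowest library of this mean was therefore a KO and the highest a WT, while KO 1 and KO 4 lay above WT 1 to WT 3.

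**Figure D2:**
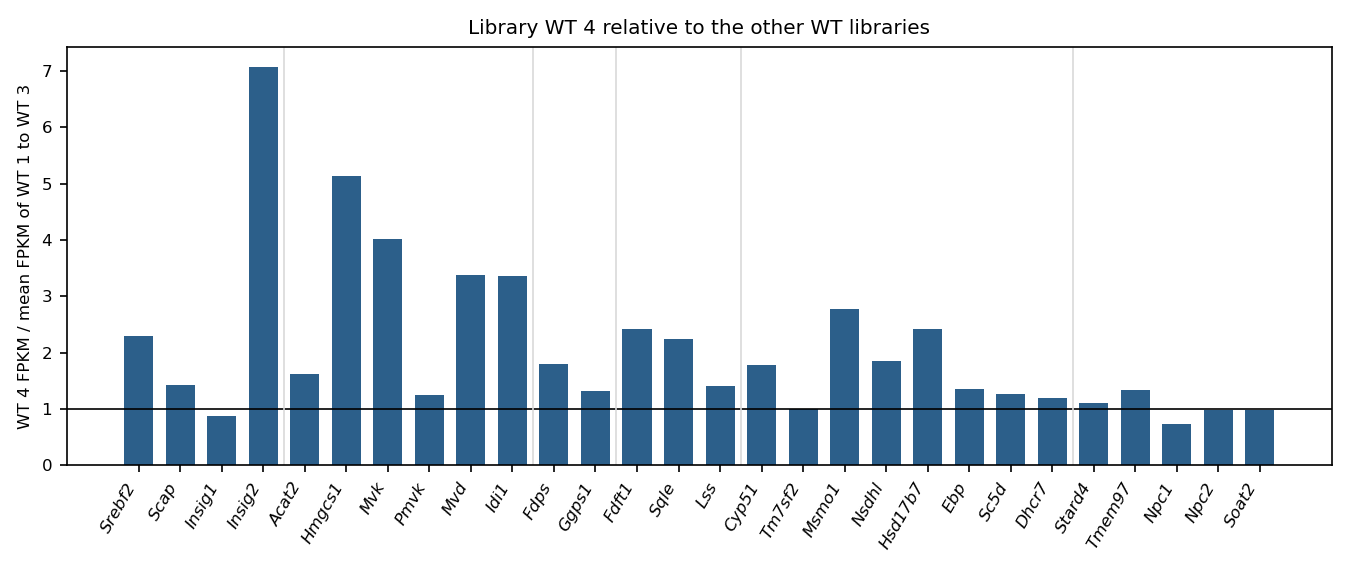
Bars give the FPKM of WT 4 divided by the mean FPKM of WT 1 to WT 3 for each gene, with a line at 1 and grey lines parting the pathway steps. The ratio reaches 7.07 for Insig2 and 5.13 for Hmgcs1, and is below 1 for Insig1, Tm7sf2, Npc1, Npc2 and Soat2.

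Promoter sequence is shown for the genes on which these results turn: 4 in which WT 4 stood apart, and the 2 whose groups did not overlap. Each window runs from 250 bases before to 50 after the start of a RefSeq transcript (GRCm38.p6), and of the 28 members 22 had at least 1 window in that table. Fdps, Fdft1, Sqle, Stard4, Npc1 and Soat2 did not. Capitals mark every match, on either strand, to 4 motifs: the sterol regulatory element TCACNCCAC bound by SREBP proteins, the NF-Y box CCAAT, the Sp1 box GGGCGG and the E-box CACGTG. Matches can overlap and are a description of letters, not of binding.
Hmgcs1, chr13:119690101-119690400, plus strand: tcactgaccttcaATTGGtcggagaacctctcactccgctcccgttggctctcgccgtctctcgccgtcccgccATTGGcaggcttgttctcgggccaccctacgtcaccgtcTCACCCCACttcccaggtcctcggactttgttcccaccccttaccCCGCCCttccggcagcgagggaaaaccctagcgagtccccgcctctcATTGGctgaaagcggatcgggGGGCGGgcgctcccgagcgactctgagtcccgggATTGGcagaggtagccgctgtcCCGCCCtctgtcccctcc
Mvk, chr5:114444019-114444318, plus strand: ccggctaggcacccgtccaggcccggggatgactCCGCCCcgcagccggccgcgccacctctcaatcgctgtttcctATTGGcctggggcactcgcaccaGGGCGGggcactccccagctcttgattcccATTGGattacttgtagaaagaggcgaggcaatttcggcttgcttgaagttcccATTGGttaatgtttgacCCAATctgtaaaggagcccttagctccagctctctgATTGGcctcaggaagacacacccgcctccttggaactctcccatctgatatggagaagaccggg
Idi1, chr13:8885356-8885655, plus strand: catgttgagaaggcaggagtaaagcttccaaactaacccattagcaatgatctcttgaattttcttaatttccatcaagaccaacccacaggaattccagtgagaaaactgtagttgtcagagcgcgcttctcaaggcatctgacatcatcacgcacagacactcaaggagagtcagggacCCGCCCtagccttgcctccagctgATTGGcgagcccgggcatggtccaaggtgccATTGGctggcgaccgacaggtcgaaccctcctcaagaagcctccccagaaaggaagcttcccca
Insig2, chr1:121332540-121332839, minus strand: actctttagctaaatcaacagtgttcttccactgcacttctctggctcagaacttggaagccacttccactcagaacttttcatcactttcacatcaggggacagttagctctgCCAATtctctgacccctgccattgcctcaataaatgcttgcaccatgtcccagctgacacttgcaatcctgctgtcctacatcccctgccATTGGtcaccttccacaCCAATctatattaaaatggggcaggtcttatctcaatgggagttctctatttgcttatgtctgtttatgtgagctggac
Tmem97, chr11:78550686-78550985, minus strand: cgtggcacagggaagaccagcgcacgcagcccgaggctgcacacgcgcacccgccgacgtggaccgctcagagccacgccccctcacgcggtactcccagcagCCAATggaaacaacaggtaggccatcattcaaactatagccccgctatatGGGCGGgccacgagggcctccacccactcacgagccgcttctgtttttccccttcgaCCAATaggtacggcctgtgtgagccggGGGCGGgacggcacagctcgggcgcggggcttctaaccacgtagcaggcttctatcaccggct
Npc2, chr12:84773063-84773362, minus strand: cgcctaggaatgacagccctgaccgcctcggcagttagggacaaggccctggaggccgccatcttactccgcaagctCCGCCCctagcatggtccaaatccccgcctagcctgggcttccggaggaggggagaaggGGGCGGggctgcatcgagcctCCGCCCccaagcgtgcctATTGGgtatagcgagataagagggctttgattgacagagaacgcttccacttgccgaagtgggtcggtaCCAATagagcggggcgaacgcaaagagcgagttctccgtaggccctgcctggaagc

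Among the members' 28 windows (several genes have more than 1 start), the NF-Y box was in 20 (71.4%), against 37.4% of the 32851 windows of all genes. The Sp1 box was in 23 (82.1%), against 35.7% of all windows, and the E-box in 6 (21.4%), against 7.15%. The sterol element in this spelling was in 1 window, that of Hmgcs1, where it starts 137 bases before the start site, and in 1.24% of all windows. The Hmgcs1 window also held 4 NF-Y and 3 Sp1 boxes. The Mvk window had 5 NF-Y boxes and 2 Sp1 boxes. Insig2, whose window shown is the most upstream of 3, had 3 NF-Y boxes and no other of these motifs there. Tmem97 and Npc2, the genes without overlap between KO and WT, each had 2 NF-Y boxes, with 2 and 3 Sp1 boxes.

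None of the 4 regulators passed the test. Srebf2 (ENSMUSG00000022463, chromosome 15, 82147181 to 82205379, GRCm38), which encodes SREBP2, was at 9.26, 9.08, 10.3 and 10.7 FPKM in KO 1 to KO 4, against 6.82, 8.47, 10.4 and 19.7 FPKM in WT 1 to WT 4. The 4 KO libraries lay close together, inside the WT range, and WT 4 was above all others. The means were 9.85 ± 0.798 FPKM in KO and 11.4 ± 5.74 FPKM in WT (SD, n = 4 each), a log2 change of -0.09 (95% interval -0.72 to 0.54) with a limma adjusted p of 0.968. Without WT 4 the change was 0.19. An intron of Srebf2 holds Mir33, whose product miR-33 is known to act on cholesterol export genes. The hairpin was listed at 0.565 FPKM in KO 1 and at 0 in the other 7 libraries, and nothing about the mature miRNA can be read from this table. Its mature 5′ arm, with the seed in capitals (bases 2 to 8), is shown since its hairpin lies within Srebf2.
mmu-miR-33-5p, chr15:82198127-82198147, plus strand: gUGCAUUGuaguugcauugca

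Scap, the escort of SREBP proteins, was at 34.9, 31.9, 17.6 and 36.4 FPKM in KO 1 to KO 4, against 18.98, 20.8, 20.04 and 28.4 FPKM in WT 1 to WT 4. KO 1, KO 2 and KO 4 were above every WT library, and KO 3 was below them all. Its means were 30.2 ± 8.61 FPKM in KO and 22.05 ± 4.30 FPKM in WT (SD, n = 4 each), with a log2 change of 0.40 (95% interval -0.16 to 0.97) and a limma adjusted p of 0.697. This was the only regulator with a change above 0.

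Insig1, the retention protein that SREBP2 itself induces, was at 139, 68.99, 141 and 156 FPKM in KO 1 to KO 4, against 99.8, 126, 181 and 119 FPKM in WT 1 to WT 4. Among the most abundant members, it overlapped between the groups (log2 change -0.09, 95% interval -0.74 to 0.56, limma adjusted p = 0.968). KO 2 was the lowest of all libraries. WT 4 was within the range of the other WT libraries for Insig1, unlike most members. Insig2, the second retention protein, whose liver transcript is known to be high in fasting and low under insulin, was at 22.9, 12.8, 25.7 and 14.5 FPKM in KO 1 to KO 4, against 14.7, 14.9, 19.6 and 116 FPKM in WT 1 to WT 4. The WT 4 value was 7.07 times the mean of the other WT libraries, the highest such ratio of the 28 genes, and all other libraries lay between 12.8 and 25.7 FPKM. The log2 change was -0.54 (95% interval -1.87 to 0.80) with all libraries and 0.15 without WT 4 (limma adjusted p = 0.875 and 0.926).

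The enzymes from acetyl-CoA to isopentenyl units were highest in WT 4 among the WT libraries for all 6 genes. Hmgcs1 (ENSMUSG00000093930, chromosome 13, 119690379 to 119708260), the cytosolic HMG-CoA synthase, was at 77.8, 27.1, 27.7 and 69.9 FPKM in KO 1 to KO 4, against 39.1, 40.96, 28.3 and 185 FPKM in WT 1 to WT 4. KO 1 and KO 4 were above WT 1 to WT 3 and below WT 4, while KO 2 and KO 3 were close to WT 3. The means were 50.6 ± 26.99 FPKM in KO and 73.4 ± 74.7 FPKM in WT (SD, n = 4 each), and the log2 change was -0.26 (95% interval -1.57 to 1.06, limma adjusted p = 0.950). Without WT 4 it was 0.33, with the opposite sign and no call.

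Mvk, mevalonate kinase, was at 4.21, 3.71, 3.08 and 5.68 FPKM in KO 1 to KO 4, against 3.54, 4.48, 4.43 and 16.6 FPKM in WT 1 to WT 4. Apart from WT 4, whose value was 4.01 times the mean of the other WT libraries, all 7 libraries lay between 3.08 and 5.68 FPKM. Mvd, the decarboxylase that makes isopentenyl diphosphate, was at 11.6, 2.37, 6.46 and 8.77 FPKM in KO 1 to KO 4, against 2.23, 8.93, 7.38 and 20.8 FPKM in WT 1 to WT 4. Its lowest libraries, KO 2 and WT 1, were nearly equal, and neither genotype had a narrow range. Idi1, the isomerase of the isopentenyl unit, was at 21.9, 16.9, 17.8 and 31.1 FPKM in KO 1 to KO 4, against 18.9, 22.6, 20.1 and 69.1 FPKM in WT 1 to WT 4. As for Mvk, WT 4 stood alone (3.37 times the mean of WT 1 to WT 3). The log2 changes were -0.46 for Mvk, -0.23 for Mvd and -0.37 for Idi1 with all libraries, and -0.01, 0.21 and 0.06 without WT 4, and none passed (limma adjusted p = 0.823, 0.956 and 0.870).

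Pmvk, phosphomevalonate kinase, was at 46.1, 13.3, 27.5 and 28.4 FPKM in KO 1 to KO 4, against 22.5, 23.8, 26.5 and 30.3 FPKM in WT 1 to WT 4. Here the spread was in the KO libraries, with KO 1 the highest and KO 2 the lowest of all 8, while the WT libraries were close together. Acat2, the cytosolic thiolase that joins acetyl-CoA molecules (not the cholesterol-esterifying enzyme also known as ACAT2, which Soat2 encodes), was at 34.97 ± 5.51 FPKM in KO and 34.4 ± 9.32 FPKM in WT (SD, n = 4 each; log2 change 0.04, 95% interval -0.43 to 0.52). WT 4 was the highest library at 48.4 FPKM, and WT 1 to WT 3 lay between 28.8 and 30.5 FPKM. Acat2 has a close copy, Acat3, at 56.8 ± 7.65 FPKM in KO and 56.1 ± 17.7 FPKM in WT (SD, n = 4 each), so reads may be divided between them.

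Fdps, at the branch point to prenyl groups, had the largest positive change of the members with all 8 libraries, and it did not pass. This farnesyl diphosphate synthase gene (ENSMUSG00000059743, chromosome 3, 89093588 to 89101959) was at 161, 41.8, 81.8 and 149.9 FPKM in KO 1 to KO 4, against 55.8, 66.4, 52.4 and 105 FPKM in WT 1 to WT 4. KO 1 and KO 4 were above every WT library, KO 3 was within the WT range and KO 2 was below it. The means were 109 ± 56.8 FPKM in KO and 69.9 ± 24.1 FPKM in WT (SD, n = 4 each), and the log2 change was 0.50 (95% interval -0.44 to 1.44, limma adjusted p = 0.813). The change was 0.25 without KO 1 and 0.29 without KO 4, below that of Dhcr7 in both fits, against 0.89 without KO 2 and 0.71 without WT 4. Leaving out both WT 4 and KO 2 put the remaining KO libraries above the remaining WT libraries, and the change was 1.10 (95% interval 0.43 to 1.77), which still did not pass (limma adjusted p = 0.180). Ggps1, which lengthens the chain to geranylgeranyl diphosphate, was the least abundant member, at 0.698, 1.28, 0.730 and 1.17 FPKM in KO 1 to KO 4, against 1.08, 0.691, 1.64 and 1.51 FPKM in WT 1 to WT 4. Its groups overlapped, and the change was -0.17 (95% interval -0.63 to 0.29). Ggps1 overlaps Arid4b on the other strand, and Fdps overlaps Gm43738 and Gm22935 on the same strand, so some of their reads may belong there.

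The enzymes from squalene to lanosterol showed no shared direction of change. Fdft1, squalene synthase and the first step committed to sterols, was at 29.8, 18.6, 17.6 and 28.02 FPKM in KO 1 to KO 4, against 17.03, 16.6, 18.1 and 41.7 FPKM in WT 1 to WT 4. WT 1 to WT 3 were within 16.6 to 18.1 FPKM and WT 4 was 2.42 times their mean. Fdft1 overlaps Ctsb, a lysosomal protease gene, on the other strand. Sqle, the squalene epoxidase and a rate-controlling step, was at 17.1, 8.03, 17.8 and 9.93 FPKM in KO 1 to KO 4, against 7.46, 16.4, 23.6 and 35.4 FPKM in WT 1 to WT 4. Its values overlapped over most of their range, and KO 2 and WT 1 were the lowest. Lss, which closes the ring of lanosterol, was at 27.03, 9.25, 44.997 and 17.01 FPKM in KO 1 to KO 4, against 14.8, 17.4, 16.7 and 22.8 FPKM in WT 1 to WT 4. KO 3 had the highest Lss and KO 2 the lowest of all 8 libraries, so the KO libraries spanned the WT range on both sides. The log2 changes were 0.09 (95% interval -0.62 to 0.79) for Fdft1, -0.49 (95% interval -1.46 to 0.47) for Sqle and 0.24 (95% interval -0.66 to 1.14) for Lss, with limma adjusted p of 0.973, 0.823 and 0.932. Without WT 4 the change of Sqle was -0.18, and without KO 3 the change of Lss was -0.11.

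Of the 8 enzymes from lanosterol to cholesterol 6 had a change below 0, with none past the threshold. Cyp51, the lanosterol demethylase, was at 53.2, 20.9, 25.999 and 41.2 FPKM in KO 1 to KO 4, against 36.8, 55.7, 35.4 and 76.05 FPKM in WT 1 to WT 4. KO 2 and KO 3 were below every WT library and KO 1 and KO 4 were within their range. Its log2 change was -0.54 (95% interval -1.30 to 0.22, limma adjusted p = 0.699), and -0.32 without WT 4.

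Msmo1, the methylsterol oxidase, was at 32.8, 22.2, 26.2 and 39.9 FPKM in KO 1 to KO 4, against 30.1, 27.2, 41.7 and 91.9 FPKM in WT 1 to WT 4. WT 4 was 2.78 times the mean of the other WT libraries, and the log2 change was -0.50 with all libraries, -0.13 without WT 4 and -0.00023 without WT 4 and KO 2. Nsdhl, the sterol dehydrogenase that works with it in removing methyl groups, was at 19.3, 10.9, 10.996 and 17.5 FPKM in KO 1 to KO 4, against 19.05, 18.9, 16.7 and 33.8 FPKM in WT 1 to WT 4. Its change was the largest negative one of the 28 genes with all libraries, at -0.55 (95% interval -1.16 to 0.06, limma adjusted p = 0.577). Without WT 4 it was -0.33 and without WT 4 and KO 2 -0.22, where Tmem97 was more negative, and the sign was the same in all 19 alternative settings. KO 2 and KO 3 were below every WT library, and KO 1 and KO 4 were not. Hsd17b7, the ketosteroid reductase of the same step, was at 8.68 ± 2.81 FPKM in KO and 12.8 ± 7.18 FPKM in WT (SD, n = 4 each), with WT 4 at 22.8 FPKM and a change of -0.41 (95% interval -1.20 to 0.38), which was -0.0984 without WT 4.

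Ebp, the sterol isomerase, was at 60.2 ± 10.1 FPKM in KO and 56.6 ± 11.8 FPKM in WT, and Sc5d, the desaturase that follows it, at 123 ± 44.8 FPKM in KO and 133 ± 20.6 FPKM in WT (SD, n = 4 each). Both were abundant, and their changes were 0.10 (95% interval -0.36 to 0.55) and -0.17 (95% interval -0.77 to 0.43). For Sc5d the KO libraries formed a high and a low pair, with KO 1 and KO 4 at 159 and 165 FPKM and KO 2 and KO 3 at 78.9 and 90.1 FPKM, on either side of the WT range of 115 to 158 FPKM. Tm7sf2, the sterol reductase, was at 16.8 ± 5.33 FPKM in KO and 18.7 ± 7.95 FPKM in WT (SD, n = 4 each). WT 1 was its highest WT library, at 29.9 FPKM, and WT 4 was at 18.6 FPKM, with a change of -0.11 (95% interval -0.79 to 0.56). It overlaps Vps51 on the same strand. Dhcr7, the last reductase of the route, was at 10.4, 7.53, 22.6 and 10.5 FPKM in KO 1 to KO 4, against 7.68, 8.26, 9.50 and 10.1 FPKM in WT 1 to WT 4. KO 3 stood above all other libraries, and the rest lay between 7.53 and 10.5 FPKM (log2 change 0.37, 95% interval -0.28 to 1.03, limma adjusted p = 0.792). Without KO 3 the change of Dhcr7 was 0.0763. KO 3 was therefore the highest library for both Lss and Dhcr7, while for Nsdhl and Cyp51 it was in the lower range.

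**Figure D3:**
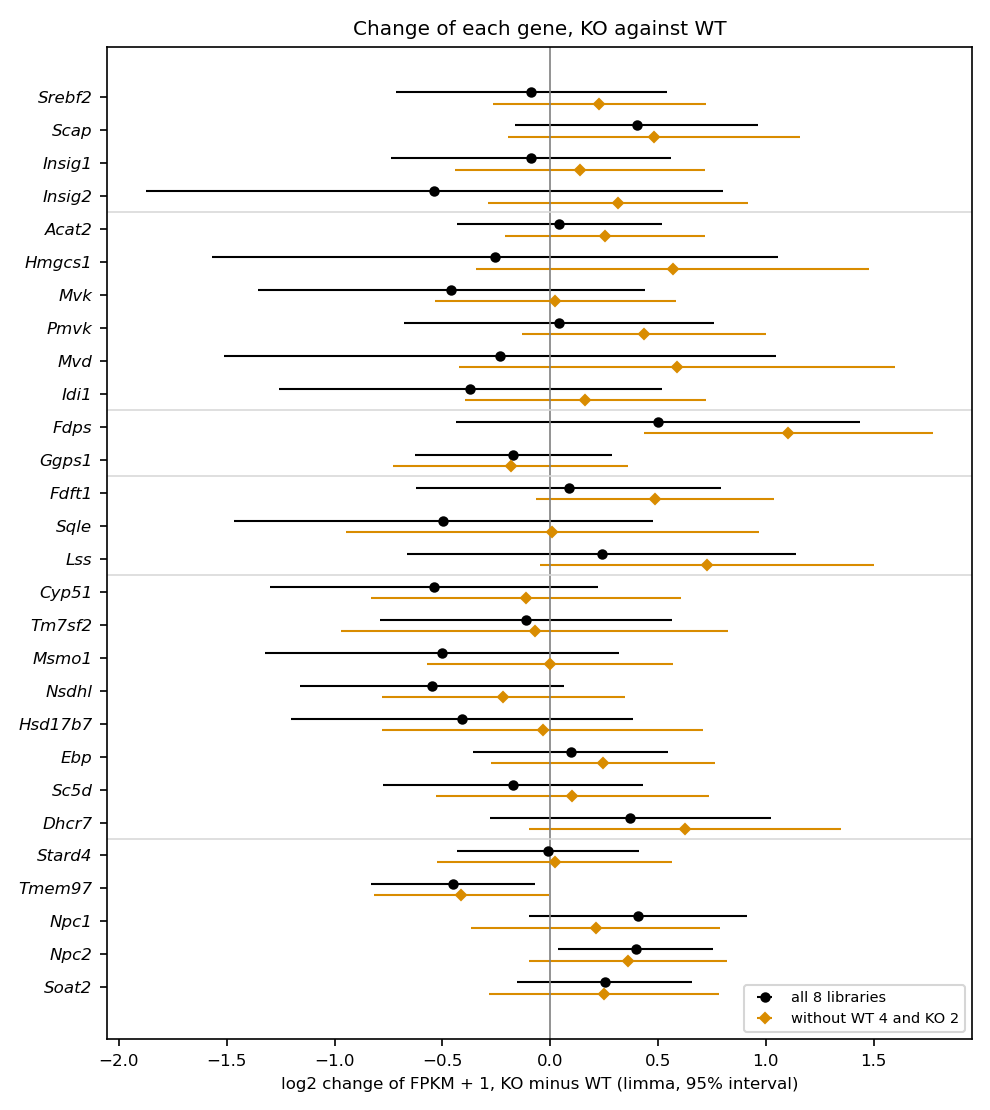
Log2 change of FPKM + 1 (KO minus WT) of each gene with its 95% interval from limma, with all 8 libraries (black circles) and without WT 4 and KO 2 (orange diamonds), and grey lines parting the pathway steps. With all libraries the intervals of Tmem97 and Npc2 alone leave out 0, and without WT 4 and KO 2 those of Fdps and Tmem97 do, at limma adjusted p of 0.180 and 0.490.

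The genes that move, bind or store cholesterol held both members without overlap. Tmem97 (ENSMUSG00000037278, chromosome 11, 78541817 to 78550777), an endoplasmic reticulum protein also known as the sigma-2 receptor, which binds NPC1, was at 13.4, 15.9, 12.4 and 13.7 FPKM in KO 1 to KO 4, against 17.6, 18.9, 17.2 and 23.9 FPKM in WT 1 to WT 4. The 4 KO values were all lower than the lowest WT value, and WT 4 was the highest. The means were 13.8 ± 1.46 FPKM in KO and 19.4 ± 3.09 FPKM in WT (SD, n = 4 each). The log2 change was -0.45 (95% interval -0.83 to -0.07), with a limma adjusted p of 0.395, so the gene did not pass over all genes. Its change kept the sign in all 19 alternatives, with adjusted p from 0.212 to 0.667.

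Npc2 (ENSMUSG00000021242, chromosome 12, 84754562 to 84773152), the soluble lysosomal protein that hands cholesterol to NPC1, was at 9.47, 9.76, 8.17 and 8.78 FPKM in KO 1 to KO 4, against 7.93, 6.22, 5.88 and 6.58 FPKM in WT 1 to WT 4. The 4 KO values were all higher than the highest WT value. The means were 9.04 ± 0.713 FPKM in KO and 6.66 ± 0.898 FPKM in WT (SD, n = 4 each), with a log2 change of 0.40 (95% interval 0.04 to 0.76) and a limma adjusted p of 0.431. Macrophages also express lysosomal genes, and their summed markers were 76.4, 19.3, 134 and 112 FPKM in KO 1 to KO 4, against 6.21, 7.18, 11.6 and 13.99 FPKM in WT 1 to WT 4. The part of these cells in the Npc2 values was not tested.

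Npc1, the membrane partner of NPC2, was at 24.5, 38.6, 29.1 and 35.6 FPKM in KO 1 to KO 4, against 33.7, 21.9, 21.8 and 18.9 FPKM in WT 1 to WT 4. KO 2 was the highest and WT 4 the lowest, the reverse of their places in most synthesis genes, and the groups overlapped (log2 change 0.41, 95% interval -0.10 to 0.91, limma adjusted p = 0.633). Soat2, which esterifies cholesterol for lipoproteins, was at 8.59, 8.39, 6.998 and 9.50 FPKM in KO 1 to KO 4, against 7.12, 8.38, 5.28 and 6.84 FPKM in WT 1 to WT 4. Its ranges overlapped in part, with a change of 0.25 (95% interval -0.15 to 0.66). Stard4, a sterol carrier of the cytosol, had nearly equal means, 21.2 ± 4.81 FPKM in KO and 21.1 ± 2.02 FPKM in WT (SD, n = 4 each; log2 change -0.01, 95% interval -0.43 to 0.41).

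Leaving out WT 4, or both WT 4 and KO 2, turned the members' median change above 0 without giving a call. The median of all genes turned above 0 in these fits as well. Without WT 4, 17 of the 28 changes were above 0 and the median was 0.14. Of all genes 52.2% were then above 0, with a median of 0.02. In that fit 0 members were called against 0.621% of all genes. Without KO 2, 14 changes were above 0 and 14 below, and the median was near 0 (0.0012). Of all genes 46.5% were then above 0, with a median of -0.02. In that fit 0 members were called, against 1.19% of all genes. When both were left out, 21 of 28 were above 0 and the median was 0.22, against 52.9% and a median of 0.02 for all genes. There 0 members were called against 0.941% of all genes. By step, this fit had 4 of 4 regulators, 6 of 6 early enzymes and 3 of 3 squalene to lanosterol enzymes above 0, and 3 of 8 of the later enzymes, with 1 of 2 prenyl genes and 4 of 5 transport genes. Without WT 1, by contrast, 9 of 28 changes were above 0 and the median was -0.17. In that fit 4903 of the 11266 genes tested were above 0. WT 4 and KO 2 were chosen with their values known. The direction without them is therefore a description of the remaining libraries and no test of the pathway.

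WT 4 and KO 2, the libraries left out above, also stood apart in genes that follow feeding. The mean log2(FPKM + 1) of 12 lipogenic genes was 6.96, 4.84, 6.31 and 6.28 in KO 1 to KO 4, against 6.11, 6.14, 6.09 and 4.44 in WT 1 to WT 4. KO 2 and WT 4 were thus the lowest libraries of their genotypes. Fasn, the fatty acid synthase gene, was at 517, 72.4, 352 and 342 FPKM in KO 1 to KO 4, against 157, 221, 159 and 89.7 FPKM in WT 1 to WT 4. Elovl6, a fatty acid elongase gene, had 29.1 FPKM in KO 2 and 1.60 FPKM in WT 4, each the lowest of its genotype. The mean of 12 fasting genes ran the other way, at 3.92, 4.37, 3.83 and 3.62 in KO 1 to KO 4, against 4.36, 3.9997, 4.27 and 5.50 in WT 1 to WT 4. Not every gene of that list did so, since G6pc was lowest in KO 2 among the KO libraries, at 35.1 FPKM. In KO 2 low lipogenic genes came with low cholesterol synthesis genes, whereas in WT 4 they came with high ones. Srebf1, which encodes SREBP1, was at 58.8 FPKM in KO 2 and 59.99 FPKM in WT 4, the lowest of each genotype, while for Srebf2 KO 2 was the lowest KO library, by a small margin, and WT 4 the highest WT library. Whether feeding state, hour of collection or sex has a part in these differences was not tested.

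**Figure D4:**
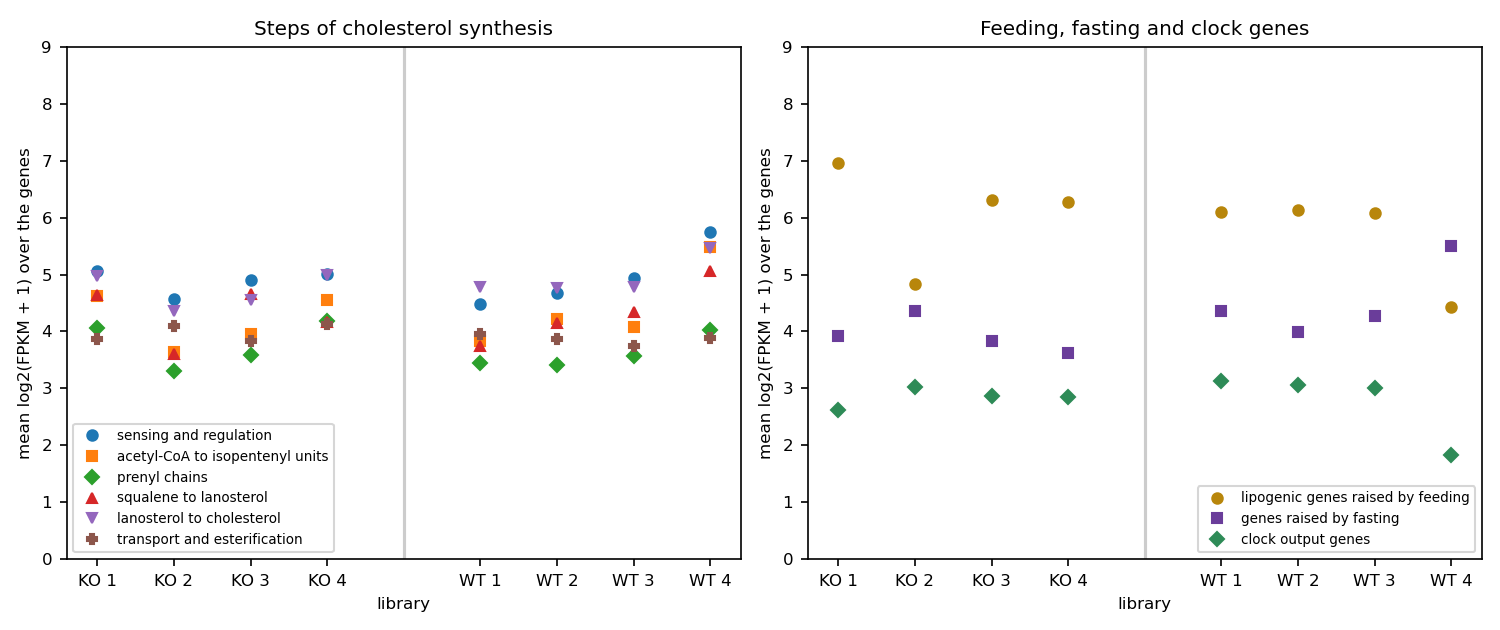
Mean log2(FPKM + 1) in each library, KO at left and WT at right, of the members of each pathway step (first panel) and of 12 lipogenic, 12 fasting and 12 clock genes (second panel). In KO 2 the early enzymes and the lipogenic genes are both low, at 3.64 and 4.84, and in WT 4 the early enzymes are at 5.48 while the lipogenic mean is at 4.44.

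Other genes of the pathway, from lists written from textbook knowledge, gave no call either. Over all genes tested, 0.763% passed, 9.81% had an unadjusted p under 0.05 and 45.5% had a change above 0. Of 13 tested genes of SREBP cleavage, sterol sensing and turnover 0 passed in either direction by limma, 0 had an unadjusted p under 0.05, and 8 changes were above 0 with a median of 0.05. Syvn1, a ubiquitin ligase of the endoplasmic reticulum, had the smallest p of that list, at 11.7 ± 6.07 FPKM in KO and 18.5 ± 9.39 FPKM in WT (SD, n = 4 each; limma adjusted p = 0.667). Mbtps1, the first protease that cuts SREBP proteins, was at 6.70, 6.48, 6.49 and 6.57 FPKM in KO 1 to KO 4, against 8.13, 7.71, 8.06 and 7.59 FPKM in WT 1 to WT 4. The KO libraries lay below the WT libraries without overlap, by a small step (log2 change -0.23, limma adjusted p = 0.689). Of 10 tested genes of the prenyl, dolichol and ubiquinone branch 0 passed and 1 had an unadjusted p under 0.05 (median -0.15). Rabggta, a subunit of the enzyme that prenylates RAB proteins, had the smallest p of that list, at 5.58 ± 1.15 FPKM in KO and 8.81 ± 1.23 FPKM in WT (SD, n = 4 each; limma adjusted p = 0.283).

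Uptake, movement and storage genes gave 0 calls among 12 tested (median -0.06). At an unadjusted p under 0.05 there were 2, against 9.81% of all genes. Tspo, a cholesterol-binding protein of the outer mitochondrial membrane, was at 7.73, 9.22, 7.82 and 9.52 FPKM in KO 1 to KO 4, against 14.98, 11.3, 17.9 and 18.6 FPKM in WT 1 to WT 4. All KO libraries were lower (log2 change -0.79, limma adjusted p = 0.132). Scarb1, the receptor that takes up cholesterol from high-density lipoprotein, was at 47.4, 62.2, 46.5 and 59.03 FPKM in KO 1 to KO 4, against 23.6, 24.5, 31.6 and 47.1 FPKM in WT 1 to WT 4. WT 4 reached the KO range, and the other WT libraries were below it (log2 change 0.79, limma adjusted p = 0.239).

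Of 8 tested export genes and liver X receptor targets 0 passed and 1 had an unadjusted p under 0.05 (median 0.14). Pltp, the phospholipid transfer protein gene, was at 81.7, 17.1, 19.9 and 39.1 FPKM in KO 1 to KO 4, against 16.01, 8.34, 6.17 and 8.82 FPKM in WT 1 to WT 4. The groups did not overlap, by a narrow margin, and KO 1 was the highest library (limma adjusted p = 0.180). Of 8 tested bile acid and oxysterol enzymes 7 had a change below 0, where 54.5% of all genes did, and 0 passed (median -0.42). An unadjusted p under 0.05 was reached by 3, against 9.81% of all genes. These were Cyp39a1, an oxysterol hydroxylase gene (5.67 ± 2.51 FPKM in KO and 11.1 ± 3.12 FPKM in WT), Cyp7b1, the hydroxylase gene of the acidic bile acid route (0.968 ± 0.359 FPKM in KO and 2.62 ± 1.64 FPKM in WT), and Akr1d1, a steroid reductase gene with a change above 0 (62.1 ± 10.2 FPKM in KO and 45.3 ± 4.39 FPKM in WT; SD, n = 4 each). Their limma adjusted p were 0.332, 0.389 and 0.428. Of 13 other genes described as SREBP targets, 8 had a change above 0, 0 passed and 0 had an unadjusted p under 0.05 (median 0.14). Mmab, a cobalamin gene known in human to share a promoter region with Mvk, had the smallest p there and was at 3.5 ± 0.517 FPKM in KO and 5.46 ± 1.96 FPKM in WT (SD, n = 4 each). As for Mvk, WT 4 was the highest library, at 8.16 FPKM (limma adjusted p = 0.547). Of 12 lipogenic, 11 fasting and 10 clock genes tested, 0 passed, with 1, 3 and 0 at an unadjusted p under 0.05. Of the fasting genes 8 had a change below 0 (median -0.33), and G6pc, Acot1 and Cyp4a10, with the smallest p, were all lower in KO. G6pc was at 47.95, 35.1, 71.3 and 61.5 FPKM in KO 1 to KO 4, against 134, 88.7, 127 and 184 FPKM in WT 1 to WT 4. Its groups did not overlap (log2 change -1.29, limma adjusted p = 0.0892).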

How the data were processed

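Total RNA of 8 frozen liver samples was measured by RNA sequencing, with libraries made from Nugen reagents per the labels' protocols. The authors deposited 1 table of FPKM values for 35638 genes. The submitters' processing notes list TopHat, edgeR and mm10. Their roles, the gene annotation and whether strand was counted were not given in the sources used here. Such values depend on gene length and on the other RNA of the library. Depth was estimated at 12400000 to 15200000 reads, as the depth that put most low values of single-transcript genes within 0.1 of a whole read. At that depth 50.02 to 53.1% of them were. Chance gives 20% at a fixed depth, and more at a depth picked for the highest share. These shares were too low to rebuild reads, so tests for counts were not run. Coordinates came from GENCODE M21 (GRCm38, 99.4% of IDs matched).

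Values were taken as log2(FPKM + 1) for the 11266 genes with a mean of at least 1 FPKM, and KO was compared with WT by limma 3.58.1 in R 4.3.3 (genotype only, intensity trend, two-sided, Benjamini-Hochberg over all genes, threshold 0.05). Changes are on that scale, which understates those of low genes. No set test was run, and no p was adjusted over the list alone. On simulated data for this comparison (11266 genes) the fit recovered 38 of 100 genes changed by 1 log2 unit. It recovered 85 of 100 changed by 2 log2 units. In all, 5 of the 128 calls were false. How shifts shared by many genes of a library, as in WT 4, alter these counts was not tested. The members, lists, motifs and alternatives were chosen with earlier results of these data known. All members are named, and of each other list up to 3 genes with the smallest p. Nr1h3, Srebf1, Acly, Me1 and Pnpla3 stand in more than 1 list. Fasn, Srebf1, Elovl6, Mir33, Acat3, Dbp and Arntl were chosen after their values were seen. The library counts and promoter letters were computed with Python 3.11.15. The alternatives were pseudocounts of 0.1 and 5 FPKM, no filter, a minimum mean of 5 FPKM, 3 scalings, 2 variance models, a block for the replicate number, and fits that left out libraries. Of the 28 members 13 overlap another annotated gene, among them Fdps (Gm43738 and Gm22935), Fdft1 (Ctsb), Ggps1 (Arid4b) and Tm7sf2 (Vps51). This makes their values less certain.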

Additional observations from a re-analysis of the deposited data

Results flagged for a closer look

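In WT 4, 7 genes stood apart from the other 3 WT libraries by more than the 95% critical value of Dixon's gap test for 4 samples, and in each the WT 4 value was the highest. These were Insig2 (116 FPKM), Hmgcs1 (185 FPKM), Mvk (16.6 FPKM), Idi1 (69.1 FPKM), Acat2 (48.4 FPKM), Fdft1 (41.7 FPKM) and Nsdhl (33.8 FPKM). They include 4 of the 6 enzymes from acetyl-CoA to isopentenyl units. Chance flags about 1 in 20 groups, and 56 groups (28 genes in 2 genotypes) were examined. Over all genes tested, WT 4 was flagged as the highest WT library in 4.16%. No member was flagged in a KO library. The 7 genes were measured in the same library, so they are not independent of each other, and the cause was not tested.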

How the results depend on the processing

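No member was called in any of the 19 alternatives. The count of all genes called was 86, and 54 with a pseudocount of 5 FPKM, 27 with a minimum mean of 5 FPKM, 24 with the replicate number as a block (replicate block) and 36 to 134 when 1 library was left out. Whether equal numbers pair the samples was not given in the sources used here. Deviations of KO and WT libraries with the same number correlated by 0.0964, -0.0668, 0.0151 and 0.250, which cannot settle it. The block called 0 members. The median change of the members was -0.10, -0.21 with equal sums (all genes -0.12), -0.19 to 0.14 when 1 library was left out, where it turned above 0 without WT 4 (0.14) and without KO 2 (0.0012), and it was 0.22 without both. Changes of 12 genes kept their sign in every alternative run: Scap, Fdps, Ggps1, Cyp51, Msmo1, Nsdhl, Hsd17b7, Dhcr7, Tmem97, Npc1, Npc2 and Soat2. When 1 library was left out these ran from lowest to highest over Scap 0.30 to 0.63, Fdps 0.25 to 0.89, Ggps1 -0.30 to -0.0813, Cyp51 -0.76 to -0.32, Msmo1 -0.71 to -0.13, Nsdhl -0.69 to -0.33, Hsd17b7 -0.67 to -0.0984, Dhcr7 0.0763 to 0.57, Tmem97 -0.51 to -0.35, Npc1 0.31 to 0.57, Npc2 0.35 to 0.47, Soat2 0.15 to 0.34, and Mvk and Sqle, which turned only without both, over Mvk -0.67 to -0.0125, Sqle -0.89 to -0.18. None of the turned signs was a called value. Leaving out both gave these turned log2 changes: Srebf2 0.23, Insig1 0.14, Insig2 0.31, Hmgcs1 0.57, Mvk 0.0244, Mvd 0.59, Idi1 0.16, Sqle 0.01005, Sc5d 0.10, Stard4 0.0215. With equal sums they were Acat2 -0.0688, Pmvk -0.0662, Fdft1 -0.0226, Ebp -0.0165. Srebf2 turned to 0.0761 with array weights, and Stard4 to 0.034 with quantile normalization and 0.024 with median ratio scaling. When 1 library was left out, the changes of genes whose sign turned ran as follows, from lowest to highest: Srebf2 -0.27 to 0.19, Insig1 -0.21 to 0.18, Insig2 -0.81 to 0.15, Acat2 -0.0316 to 0.21, Hmgcs1 -0.56 to 0.33, Pmvk -0.22 to 0.36, Mvd -0.71 to 0.21, Idi1 -0.55 to 0.0559, Fdft1 -0.0358 to 0.39, Lss -0.11 to 0.61, Tm7sf2 -0.30 to 0.13, Ebp -0.00407 to 0.21, Sc5d -0.34 to 0.0152, Stard4 -0.15 to 0.0746. Ggps1, with a mean near 1 FPKM, was not tested at the minimum of 5 FPKM. Apart from the construction of each alternative, the cause of these shifts was not tested.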

Other observations

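WT 4 also differed in genes of the circadian clock. The mean log2(FPKM + 1) of 12 clock genes was 2.61, 3.03, 2.86 and 2.85 in KO 1 to KO 4, against 3.13, 3.06, 3.01 and 1.83 in WT 1 to WT 4. The list holds genes of opposite phase, such as Dbp and Arntl, so its mean gives no phase. Not every clock gene stood apart in WT 4. Nr1d1 was at 22.2 FPKM there, against 25.6, 25.9 and 5.95 FPKM in WT 1 to WT 3. Dbp, a clock output gene that peaks at the end of the light phase in mouse liver, was at 20.8, 58.9, 25.8 and 43.3 FPKM in KO 1 to KO 4, against 42.4, 49.3, 22.6 and 0.569 FPKM in WT 1 to WT 4. Arntl, which encodes BMAL1 and runs in the opposite phase to Dbp, was at 0.384, 0.177, 0.164 and 0.324 FPKM in KO 1 to KO 4, against 0.0619, 0.0590, 0.472 and 2.46 FPKM in WT 1 to WT 4. The lowest Dbp and the highest Arntl were thus in WT 4, whereas KO 2, the lowest library for 15 of the cholesterol genes among the KO libraries, had the highest Dbp of the 8. The part of the clock in the cholesterol genes was not tested.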
